A study of Homo sapiens with 12 samples.

Results

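Luspatercept was the only agent that differed between 2 groups of THP-1 cells, an established human monocytic leukaemia line, and the comparison of those groups is described here. It takes in 6 of the 12 libraries of the study, chosen by their labelled treatment and not by any measured value. The CE group (3 libraries) received LPS (lipopolysaccharide, which TLR4 senses) and ATP, which together model pyroptosis, an inflammatory form of cell death. It also received CsA (cyclosporin A, a calcineurin inhibitor) and Eltrombopag, an agonist of the thrombopoietin receptor that also binds iron. The CEL group (3 libraries) received the same 4 agents and Luspatercept. Shared by both groups are therefore LPS, ATP, CsA and Eltrombopag, and no group received Luspatercept by itself. The remaining groups of 3 libraries each, NC (untreated cells) and LPS (LPS and ATP without drugs), entered the fit and serve as reference levels. The sources used here give no doses or times, nor whether replicates were separate cultures, so the p-values measure the spread between these libraries, which may be technical. The matching of table columns to CE rests on those columns being the remaining group, and on replicate numbers.

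Luspatercept is a ligand trap made from the extracellular part of the activin receptor ACVR2B and fused to an antibody Fc part. Activins, growth and differentiation factors and some bone morphogenetic proteins bind type II receptors, which recruit and activate type I receptors. These phosphorylate the SMAD2 and SMAD3 branch or the SMAD1 and SMAD5 branch, and the active SMADs enter the nucleus with SMAD4. The inhibitory SMAD6 and SMAD7, the repressor SKIL and the ID genes are classical targets that feed back on the pathway or limit differentiation. In monocytes and macrophages activin and TGF-beta signals are known to shape inflammatory output and maturation. Luspatercept is used to treat anaemia with late-stage block of red cell maturation.

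The 6 libraries held 19865675 to 23183429 counts, and the 12 libraries 17737213 to 23183429. Levels are CPM, counts scaled to library size and TMM factors, and the 3 values of a group are those of replicates 1, 2 and 3 in that order. Of the monocyte markers used to check the line, CD33 lay at 73.6, 73.7 and 67.6 CPM in CE and 71.4, 67.8 and 71.9 CPM in CEL and CD68 at 176, 182 and 164 CPM in CE and 180.0, 183 and 181 CPM in CEL, so both were present in every library. SPI1, the myeloid transcription factor, lay at 2.66, 24.1 and 4.10 CPM in CE and 9.22, 5.66 and 5.05 CPM in CEL, and CSF1R, the receptor of macrophage colony-stimulating factor, at 29.9, 132 and 40.6 CPM in CE and 62.9, 39.3 and 31.1 CPM in CEL. CE 2 was the highest library for both, and it stood apart more widely. LYZ, FCGR1A and ITGAM, also used to check the line, had lower means in CEL and are given below. On the first principal component of the 6 libraries (47.9% of the variance) it lay at 75.64, while the others lay between -35.2 and 13.1. The second component (27.3%) separated CE, at -36.11 to -16.02, from CEL, at 25.56 to 29.06. CE 2 was the highest or lowest of the 6 libraries for 52.6% of tested genes, and the others for 20.9% to 42.7%, so counts are given with it and without it. The share of counts on mitochondrially encoded genes was 6.848% to 7.857% in CE and 6.126% to 6.351% in CEL, so it moved with the group, and its part in the results was not tested. Of the reference libraries, NC 3 and LPS 1 had 7.307% and 5.377% of counts on genes without a symbol, beside 0.602% to 0.768% in all others. Both entered the shared estimate of spread, and what this did to the results was not tested.

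Adding Luspatercept went with lower RNA of genes for mitosis, of most interferon-stimulated genes, of several cytokines and of some monocyte and macrophage markers (20 of 43 tested). RNA was higher for MX1, IFI27, CD93, SERPINE2, ID3, NFKBIA, BIRC3 and several hypoxia-responsive genes. Of 14065 tested genes 1235 rose (8.78%) and 2086 fell (14.8%), with rise, fall and call meaning an adjusted p under 0.05 in edgeR's quasi-likelihood F-test. That is 3321 genes in all, or 23.6%. The median change was 1.3-fold among genes that rose and 1.41-fold among genes that fell, and 125 rose and 348 fell by at least 2-fold. The 3 CE and 3 CEL libraries did not overlap for 4876 genes, 34.7% of those tested, among them 1221 of the risen and 2045 of the fallen genes. Without CE 2, 1680 rose (11.9%) and 2466 fell (17.5%), and 315 rather than 125 rose by at least 2-fold. Of the first calls 1080 rises and 1945 falls were kept without CE 2, and 296 were lost. Without CE 3, 1168 rose and 1198 fell. Rises were 37.2% of calls with TMM factors and 47.4% (1581 higher, 1756 lower) with library size alone, and the median change of all tested genes was -0.09 with CE 2 and 0.01 without it. With the labels' batch number as a block in the 6 libraries alone, 84 genes rose and 124 fell, and limma on log2(TPM + 1) gave 109 and 157. Of 177 called genes named here, LYZ and FCGR1A not counted, 130 lost their call with that block and 129 with limma. Of the same 177, 35 kept call and direction in all 19 alternatives run. Those of the 177 that lost their call without 1 library are marked beside their values. Those libraries and the range of the adjusted p over the alternatives are in brackets.

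**Figure D1:**
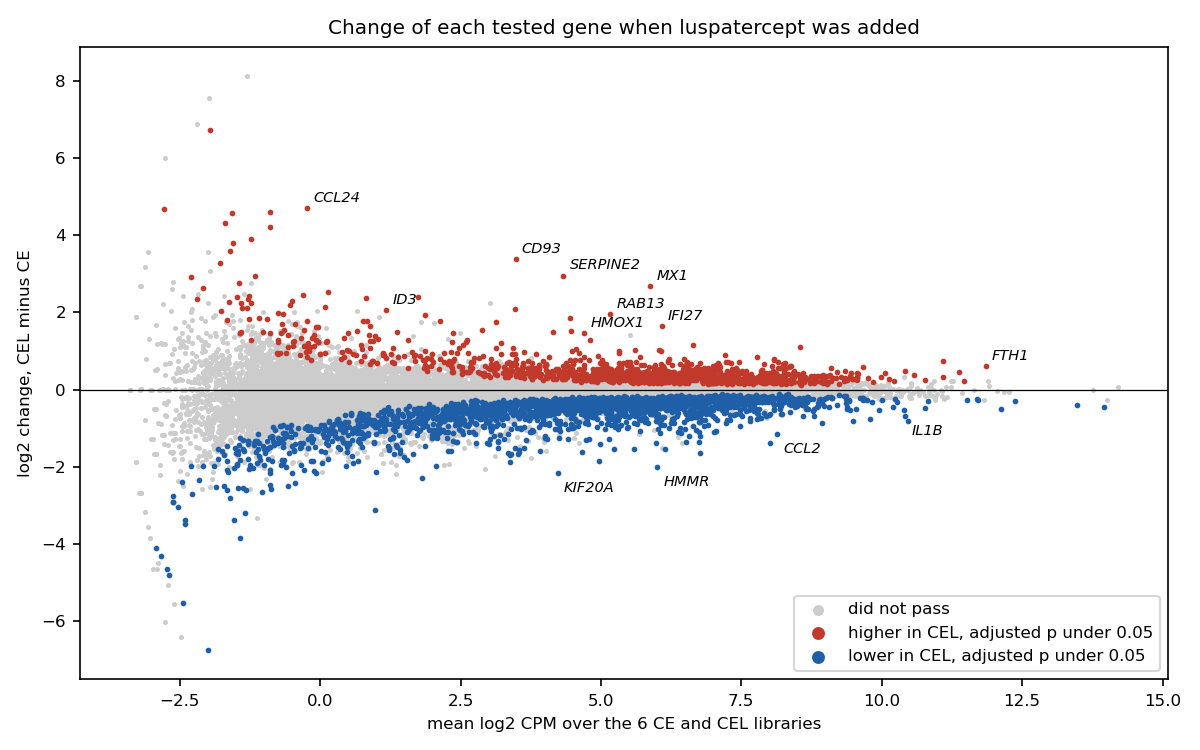
Log2 change, CEL minus CE, of each of the 14065 tested genes (vertical axis) against its mean log2 CPM over the 6 CE and CEL libraries (horizontal axis), with genes past an adjusted p of 0.05 in red (higher) or blue (lower) and named genes labelled. MX1, CD93 and SERPINE2 stand above the other risen genes at their level, and KIF20A and HMMR are among the largest falls.

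MX1, CD93, SERPINE2 and KIF20A, the genes by which this comparison was proposed, were chosen with their change known, so their values describe the comparison and support nothing beyond it. MX1 encodes an interferon-induced antiviral GTPase (chr21:41420558-41459214, GRCh38.p14) and lay at 22.7, 22.9 and 23.7 CPM in CE and 147, 146 and 153 CPM in CEL (log2 change 2.69, SE 0.04, adjusted p = 5.28e-11). The 3 CEL libraries lay within a narrow range far above the 3 CE libraries, between the level in NC (2.67 ± 0.133 CPM) and that in LPS (266 ± 6.26 CPM). CD93 encodes a transmembrane lectin-like receptor of myeloid and endothelial cells (chr20:23079360-23086324) and lay at 1.92, 6.83 and 2.36 CPM in CE and 46.7, 37.5 and 31.7 CPM in CEL (log2 change 3.38, SE 0.38, adjusted p = 9.78e-05). CE 2 was the highest CE library but stayed below every CEL library, and the change without it was 4.17. In LPS the level of CD93 was 55.7 ± 6.60 CPM and in NC 0.938 ± 0.177 CPM. SERPINE2 encodes a secreted inhibitor of thrombin and plasminogen activators (chr2:223975045-224039286) and lay at 6.84, 6.98 and 7.71 CPM in CE and 55.1, 55.8 and 56.6 CPM in CEL (log2 change 2.96, SE 0.08, adjusted p = 3.22e-09). Unlike MX1 and CD93, its level in LPS (9.57 ± 0.401 CPM) was near that in CE. KIF20A, a kinesin motor needed to complete cell division (chr5:138179112-138187723), lay at 41.8, 36.7 and 40.5 CPM in CE and 8.74, 9.87 and 7.90 CPM in CEL (log2 change -2.17, SE 0.08, adjusted p = 7.53e-08), with no overlap. Its level was 118 ± 4.42 CPM in NC and 108 ± 1.42 CPM in LPS. These calls held in all 19 alternatives run.

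**Figure D2:**
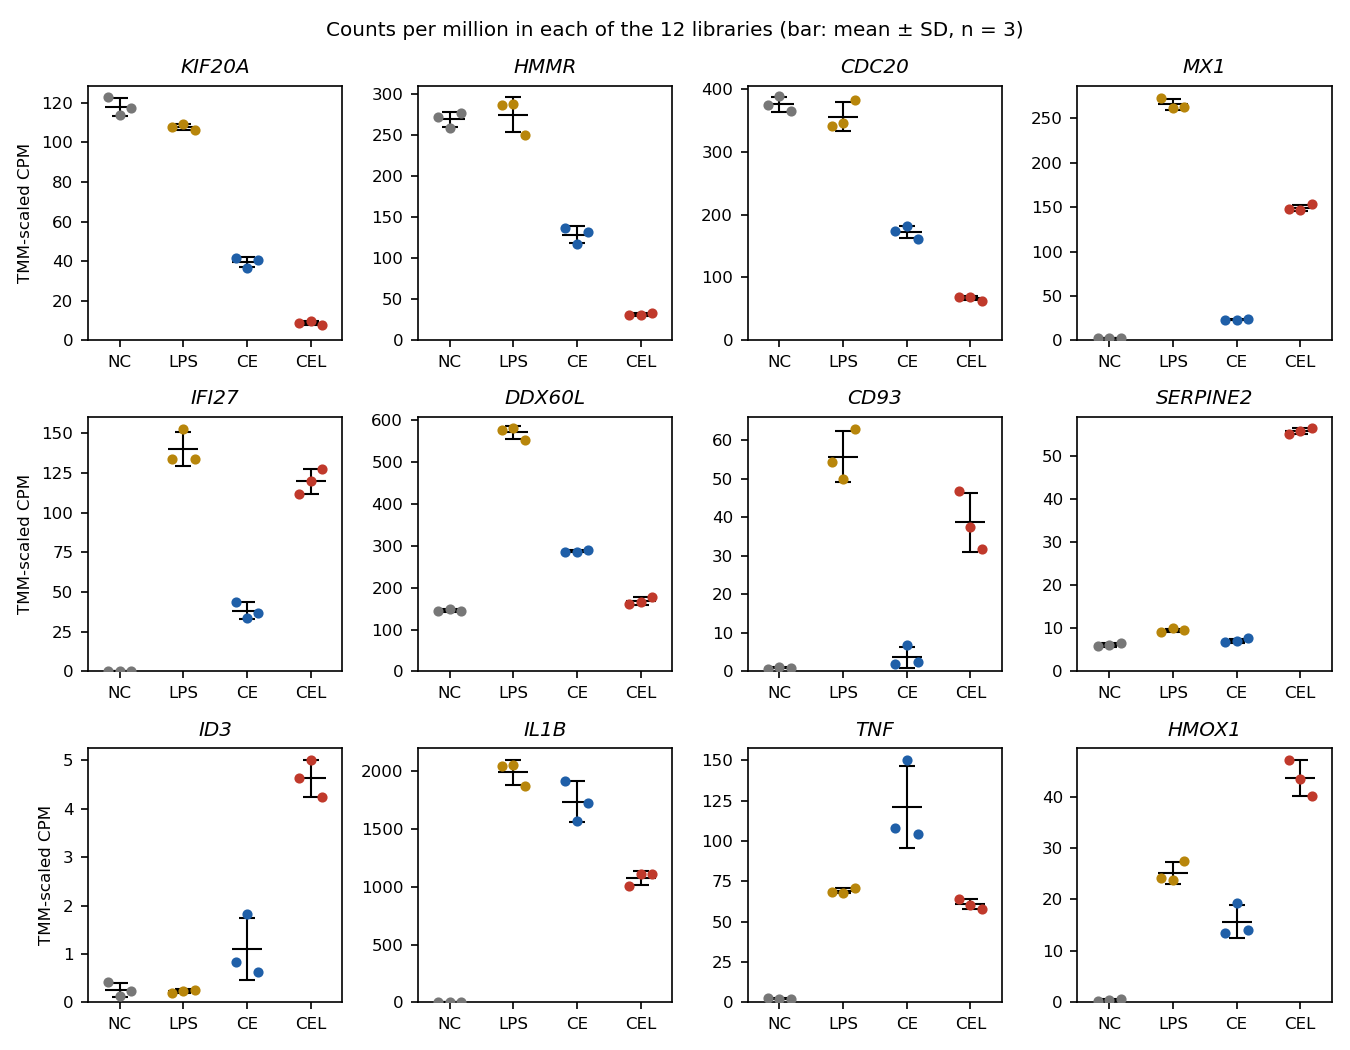
TMM-scaled CPM (vertical axis, from 0) of 12 genes in each of the 12 libraries, by group on the horizontal axis, with points for libraries and bars for the mean ± SD of 3. KIF20A, HMMR and CDC20 are lowest in CEL of the 4 groups, DDX60L, IL1B and TNF are lower in CEL than in CE, MX1, IFI27 and CD93 lie low in CE and high in CEL, and SERPINE2 and ID3 are high in CEL alone.

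Genes of G2 and mitosis fell. Of 54 tested members 52 fell and 0 rose (51 and 0 without CE 2), which is 96.3% called beside 23.6% of all tested genes, and the median change was -0.86 (-0.87 without CE 2). In other settings 30 fell and 0 rose with the batch block in the 6 libraries alone, and 26 and 0 with limma on log2(TPM + 1). In the fit on all 12 libraries only FOXM1, a transcription factor of mitotic genes (adjusted p = 0.191), and ESPL1, the separase protease (adjusted p = 0.271), did not pass. CDC25B, a phosphatase that activates mitotic CDK1, fell by 1.59 on the log2 scale, and CE 2 was its highest library. Leaving out 1 library ended the call of CDC25B (CE 2, CEL 1, CEL 2 or CEL 3, and the batch block in 12 libraries, adjusted p = 0.0959; range 3.35e-10 to 0.28). These 3 genes were singled out after their values were seen. HMMR, a spindle and hyaluronan-binding protein, lay at 137, 118 and 132 CPM in CE and 30.6, 31.02 and 33.7 CPM in CEL (log2 change -2.02, SE 0.07, adjusted p = 7.25e-08). CDC20, which activates the anaphase-promoting complex, lay at 174, 181 and 161 CPM in CE and 68.6, 69.3 and 63.02 CPM in CEL (log2 change -1.36, SE 0.06, adjusted p = 2.16e-07). ASPM, a spindle pole protein, lay at 181, 194 and 200.4 CPM in CE and 58.8, 59.1 and 66.2 CPM in CEL (log2 change -1.64, SE 0.05, adjusted p = 3.59e-08). In each of these the highest CEL library was below the lowest CE library by a wide margin. PSRC1, a microtubule-binding protein, lay at 15.8, 28.3 and 16.2 CPM in CE and 6.10, 5.46 and 4.89 CPM in CEL (log2 change -1.87, SE 0.20, adjusted p = 8.45e-05), and PLK1, a mitotic kinase, at 11.4, 32.1 and 14.1 CPM in CE and 7.88, 5.46 and 4.84 CPM in CEL (log2 change -1.66, SE 0.36, adjusted p = 0.00657). CE 2 was the highest library for both, and without it their changes were -1.54 and -1.06. In the 6 libraries alone with the batch block, 30 members fell. In bulk RNA, fewer cells in mitosis and less RNA per cell cannot be told apart.

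The promoters of 3 of these genes are shown because the list moved together and promoters of mitotic genes are known for a pair of short elements, CCAAT boxes and the cell cycle homology region. Each run is the RefSeq window (GRCh38.p14) from 250 bases before to 50 bases after a transcription start, 5′ to 3′ on the gene's strand, for KIF20A (chr5:138178862-138179161, plus strand), HMMR (chr5:163460382-163460681, plus strand) and CDC20 (chr1:43358731-43359030, plus strand). Capitals mark CCAAT, the box, and the homology region, which is TTTGAA or, in place of its G, an A (TTTAAA). Both strands were searched, and neighbouring matches can run together or overlap.
KIF20A: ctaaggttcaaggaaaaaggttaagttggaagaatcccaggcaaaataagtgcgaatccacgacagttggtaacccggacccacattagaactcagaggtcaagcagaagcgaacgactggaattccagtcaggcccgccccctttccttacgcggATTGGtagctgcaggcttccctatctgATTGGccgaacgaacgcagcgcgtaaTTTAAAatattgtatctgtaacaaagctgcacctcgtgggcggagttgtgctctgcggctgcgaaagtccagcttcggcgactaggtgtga
HMMR: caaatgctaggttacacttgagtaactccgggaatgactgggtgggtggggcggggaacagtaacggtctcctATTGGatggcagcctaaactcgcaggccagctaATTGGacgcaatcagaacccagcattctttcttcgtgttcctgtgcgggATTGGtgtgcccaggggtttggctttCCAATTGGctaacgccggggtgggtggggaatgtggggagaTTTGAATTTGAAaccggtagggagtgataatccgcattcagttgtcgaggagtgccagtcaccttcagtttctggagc
CDC20: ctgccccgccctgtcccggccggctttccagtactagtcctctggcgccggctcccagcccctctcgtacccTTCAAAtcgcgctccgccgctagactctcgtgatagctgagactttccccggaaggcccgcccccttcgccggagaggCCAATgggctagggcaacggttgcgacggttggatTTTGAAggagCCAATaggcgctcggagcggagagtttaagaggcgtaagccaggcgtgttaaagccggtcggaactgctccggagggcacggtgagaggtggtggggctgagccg
In KIF20A the match nearest the start lies 41 to 36 bases before it, in HMMR 2 matches lie 28 to 17 bases before it, and in CDC20 the nearer of 2 matches lies 65 to 60 bases before it and the other, on the opposite strand, 178 to 173 bases before it. Windows were found for 45 of 54 tested members (83.3%). CCAAT was present in 75.4% of their 57 windows, beside 34.6% of 35116 windows of all RefSeq genes, and the homology region in 75.4% beside 24.0%. That background was not limited to the genes tested here. Both stood in 57.9% of the members' windows and 9.3% of all. These are counts of letters, not of bound sites.

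Among genes of DNA replication and the G1/S transition 17 of 48 tested members fell (35.4% beside 14.8% of all tested genes), 0 rose and 31 did not pass, with a median of -0.31 (19 fell and the median was -0.10 without CE 2). None fell with the batch block in the 6 libraries alone or with limma on log2(TPM + 1) (0 and 0). BRCA1, which acts in DNA repair at replication forks, fell from 135 ± 4.98 to 92.3 ± 4.21 CPM (log2 change -0.55, SE 0.04, adjusted p = 6.59e-06). RFC4, a subunit of the clamp loader, fell by 0.50 on the log2 scale, CDC6, which loads the replicative helicase, by 0.44, and ORC6, of the origin recognition complex, by 0.45. Each of these 4 was lower in all 3 CEL libraries than in any CE library. Of 9 tested replication-dependent histone genes, whose RNA mostly lacks the poly(A) tail that the library captures, 8 did not pass. Their median change was still 1.89 (2 without CE 2), and the groups did not overlap for 6 of the 9, beside 34.7% of all tested genes. With the batch block in the 6 libraries alone 2 rose and 0 fell. In the fit on all 12 libraries 1 rose and 0 fell (11.1% called). It was H2AC6 (1.53, 1.11 and 1.59 CPM in CE and 6.45, 8.07 and 7.84 CPM in CEL), and its reads can match close copies. MYC, a growth regulator, lay at 17.03, 38.2 and 17.4 CPM in CE and 15.8, 11.8 and 10.7 CPM in CEL (log2 change -0.93, SE 0.29, adjusted p = 0.0375), with CE 2 above the rest. The call did not hold without 1 library for MYC (CE 2, CEL 2 or CEL 3, and the batch block in 12 libraries, adjusted p = 0.0762; range 4.75e-10 to 0.34).

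Most called interferon-stimulated genes fell, while MX1 and IFI27 rose. Of 58 tested members 35 fell and 2 rose (38 and 5 without CE 2), 63.8% called beside 23.6% of all tested genes, and the median change was -0.46 (-0.38 without CE 2). The risen members were MX1, given above, and IFI27, a small mitochondrial protein, which lay at 43.999, 33.8 and 37.1 CPM in CE and 112, 120.1 and 128 CPM in CEL (log2 change 1.65, SE 0.10, adjusted p = 1.39e-06). The CEL libraries of IFI27 lay far above the CE libraries and below the LPS level of 140.1 ± 10.9 CPM. DDX60L, a helicase-like antiviral protein, lay at 285, 286 and 291 CPM in CE and 162, 165 and 178 CPM in CEL (log2 change -0.77, SE 0.04, adjusted p = 7.88e-07), and PARP9, a macrodomain protein of the antiviral response, at 379, 357 and 381 CPM in CE and 235, 235 and 252 CPM in CEL (log2 change -0.63, SE 0.04, adjusted p = 2.37e-06). For these fallen members the groups did not overlap and every CEL library was low. Named after their values were seen, MX2, the close relative of MX1, fell from 405 ± 15.5 to 317 ± 7.18 CPM (log2 change -0.35, SE 0.04, adjusted p = 1.41e-04), CXCL10, a chemokine for T cells, fell from 121 ± 13.4 to 56.2 ± 3.11 CPM (log2 change -1.11, SE 0.09, adjusted p = 1.35e-05), and the signal transducer STAT2 fell by 0.75 on the log2 scale. With the batch block in the 6 libraries alone 5 members fell, and with limma on TPM 2.

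Promoter windows of MX1, IFI27 and DDX60L are shown because these genes share a family of regulators and moved in opposite directions. Capitals mark the core of the interferon response element, GAAANNGAAA, searched on both strands. Shown is the RefSeq window of each gene with the most matches, for MX1 (chr21:41420308-41420607, plus strand), IFI27 (chr14:94110486-94110785, plus strand) and DDX60L (chr4:168480443-168480742, minus strand), laid out as before.
MX1: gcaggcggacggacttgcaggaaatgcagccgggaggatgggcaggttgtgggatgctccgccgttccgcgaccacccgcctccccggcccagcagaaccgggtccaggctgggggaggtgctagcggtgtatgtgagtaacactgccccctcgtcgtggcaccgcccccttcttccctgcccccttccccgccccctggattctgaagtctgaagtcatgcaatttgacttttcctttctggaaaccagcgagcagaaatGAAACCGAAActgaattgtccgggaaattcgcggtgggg
IFI27: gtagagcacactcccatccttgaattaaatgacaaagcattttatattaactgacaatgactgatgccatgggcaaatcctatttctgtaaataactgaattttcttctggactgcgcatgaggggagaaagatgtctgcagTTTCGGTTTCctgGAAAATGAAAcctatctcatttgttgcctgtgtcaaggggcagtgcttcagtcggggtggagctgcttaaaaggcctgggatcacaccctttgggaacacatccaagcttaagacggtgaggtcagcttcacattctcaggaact
DDX60L: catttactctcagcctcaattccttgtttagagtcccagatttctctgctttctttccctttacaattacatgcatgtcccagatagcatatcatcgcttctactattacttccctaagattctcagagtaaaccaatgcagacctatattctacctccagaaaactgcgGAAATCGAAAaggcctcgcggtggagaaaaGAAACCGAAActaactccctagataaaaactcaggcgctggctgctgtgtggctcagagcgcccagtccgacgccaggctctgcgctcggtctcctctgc
The MX1 window, whose match lies 12 to 21 bases after the start, is the first of 3 for that gene. IFI27 has a match on each strand, at 108 to 99 and 95 to 86 bases before the start, and DDX60L has 2 on its own strand, at 80 to 71 and 50 to 41 bases before it. So the letters were present in genes that rose and in a gene that fell. The core stood in 3.6% of all 35116 windows. No share is given for the interferon list, since 45 of its 58 tested members (77.6%) had a window, under the minimum of 80% set for such a share.

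Among called inflammatory cytokines and chemokines nearly all fell. Of 37 tested 14 fell and 1 rose (15 and 1 without CE 2), 40.5% called beside 23.6% of all tested genes, with a median of -0.55 (-0.58 without CE 2). Fewer passed in other settings: 3 fell and 1 rose with the batch block in the 6 libraries alone, and 7 and 1 with limma on log2(TPM + 1). IL1B, the cytokine that the inflammasome matures (chr2:112829751-112836779), lay at 1914, 1566 and 1727 CPM in CE and 1008, 1110.2 and 1109.8 CPM in CEL (log2 change -0.69, SE 0.08, adjusted p = 1.75e-04). All CEL libraries were below all CE libraries, and the level in LPS was 1988 ± 106 CPM. IL1A, a related alarm cytokine, lay at 45.97, 42.2 and 45.9 CPM in CE and 25.4, 30.4 and 30.1 CPM in CEL (log2 change -0.64, SE 0.08, adjusted p = 2.22e-04). TNF lay at 108, 150.2 and 105 CPM in CE and 64.1, 60.5 and 58.03 CPM in CEL (log2 change -0.99, SE 0.14, adjusted p = 3.92e-04), with CE 2 highest and a change of -0.81 without it, and CEL came near the LPS level of 69.1 ± 1.66 CPM. CCL2, a chemokine for monocytes, lay at 459, 387 and 417 CPM in CE and 168, 197 and 204 CPM in CEL (log2 change -1.15, SE 0.11, adjusted p = 4.46e-05). CXCL1, a chemokine for neutrophils, lay at 19.4, 20.2 and 21.4 CPM in CE and 6.62, 7.37 and 5.80 CPM in CEL (log2 change -1.62, SE 0.10, adjusted p = 1.84e-06), and CCL8, a further chemokine, at 5.22, 4.14 and 5.73 CPM in CE and 1.56, 1.55 and 1.34 CPM in CEL (log2 change -1.75, SE 0.20, adjusted p = 1.20e-04). In each of these the groups were clearly apart. The member that rose, named after its values were seen, was CCL24, a chemokine for eosinophils, at 0.295, 0.0481 and 0.0482 CPM in CE and 3.90, 2.91 and 3.87 CPM in CEL. It had so few counts in CE that no fold is given. IL18 (24.4, 21.6 and 21.7 CPM in CE and 21.7, 25.1 and 28.9 CPM in CEL, adjusted p = 0.311), IL6 (0.738, 1.06 and 0.723 CPM in CE and 0.346, 0.451 and 0.537 CPM in CEL, adjusted p = 0.0667) and CXCL8 (2342, 1967 and 2239.9 CPM in CE and 1655, 1892 and 1843 CPM in CEL, adjusted p = 0.107) did not pass. CXCL8 passed without CE 2 (log2 change -0.35, adjusted p = 0.0313, 0.0313 to 0.669 over the alternatives).

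Of 28 tested genes of the inflammasome and pyroptosis 13 fell and 2 rose (14 and 2 without CE 2), 53.6% called beside 23.6% of all tested genes, with a median of -0.45 (-0.31 without CE 2). Of them 1 fell and 0 rose with the batch block in the 6 libraries alone, and 1 and 0 with limma on log2(TPM + 1). Some fallen members are counted in other lists too, such as IL1A and IL1B among the cytokines and GBP2 among the interferon-stimulated genes. P2RX7, the ATP-gated channel that starts NLRP3 activation, lay at 9.50, 11.7 and 10.2 CPM in CE and 5.67, 5.51 and 4.73 CPM in CEL (log2 change -0.98, SE 0.12, adjusted p = 2.22e-04). GBP2, a guanylate-binding protein, fell from 96.9 ± 6.81 to 66.2 ± 2.53 CPM (log2 change -0.55, SE 0.07, adjusted p = 2.37e-04). CASP1, the protease that matures IL1B, lay at 223, 189.7 and 213 CPM in CE and 159.7, 170.0 and 169 CPM in CEL (log2 change -0.33, SE 0.06, adjusted p = 0.00198). A single library left out took away the call of CASP1 (CE 3; range 5.77e-05 to 0.595). The sensor NLRP3 lay at 283, 257 and 271 CPM in CE and 245, 251 and 261 CPM in CEL (adjusted p = 0.162) and passed without CE 2 (adjusted p = 0.0387, 0.0387 to 0.978 over the alternatives), with a log2 change of -0.14. PYCARD, the adaptor, lay at 12.2, 12.2 and 8.96 CPM in CE and 7.18, 8.82 and 6.82 CPM in CEL, just outside the threshold (adjusted p = 0.0526), and passed with the batch block in 12 libraries (adjusted p = 0.022, 0.0198 to 0.466 over the alternatives). GSDMD, whose product forms the pyroptotic pore, was near the limit of detection at 0.148, 1.30 and 0.145 CPM in CE and 0.476, 0.301 and 0.107 CPM in CEL. CE 2 held most of its few counts, so its spread within CE was wide, and its change did not pass (adjusted p = 0.552). The risen members, named after their values were seen, were TXNIP, which binds thioredoxin and NLRP3 (log2 change 0.49), and PANX1, an ATP-release channel (0.22). With 1 library left out, the call was lost for PANX1 (CE 1, CEL 1 or CEL 3, and the batch block in 12 libraries, adjusted p = 0.0563; range 3.11e-04 to 0.646).

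All called NF-kB subunits and feedback genes rose. Of 26 tested 6 rose and 0 fell, 23.1% called. Of all tested genes 23.6% were called in either direction and 8.78% were called higher. In other settings 2 rose and 0 fell with the batch block in the 6 libraries alone, and 1 and 0 with limma on log2(TPM + 1). Without CE 2, 12 of 26 rose, beside 11.9% of all tested genes, and the median of the list went from 0.02 to 0.41. NFKBIA, the inhibitor that NF-kB itself induces, lay at 306, 297 and 287 CPM in CE and 411, 402 and 416 CPM in CEL (log2 change 0.46, SE 0.04, adjusted p = 1.43e-05). BIRC3, an inhibitor of apoptosis, lay at 208, 190.3 and 218 CPM in CE and 335, 348 and 385 CPM in CEL (log2 change 0.79, SE 0.08, adjusted p = 5.53e-05). For both the CEL libraries were all above the CE libraries. The subunit REL rose by 0.42 and the caspase-8 inhibitor CFLAR by 0.37 on the log2 scale. The rest, named after their values were seen, were the ubiquitin-editing enzyme TNFAIP3 (0.39) and the superoxide dismutase SOD2 (0.42). Calls that ended without 1 library were those of SOD2 (CE 1, CEL 1, CEL 2 or CEL 3, and the batch block in 12 libraries, adjusted p = 0.0548; range 1.14e-04 to 0.173).

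**Figure D3:**
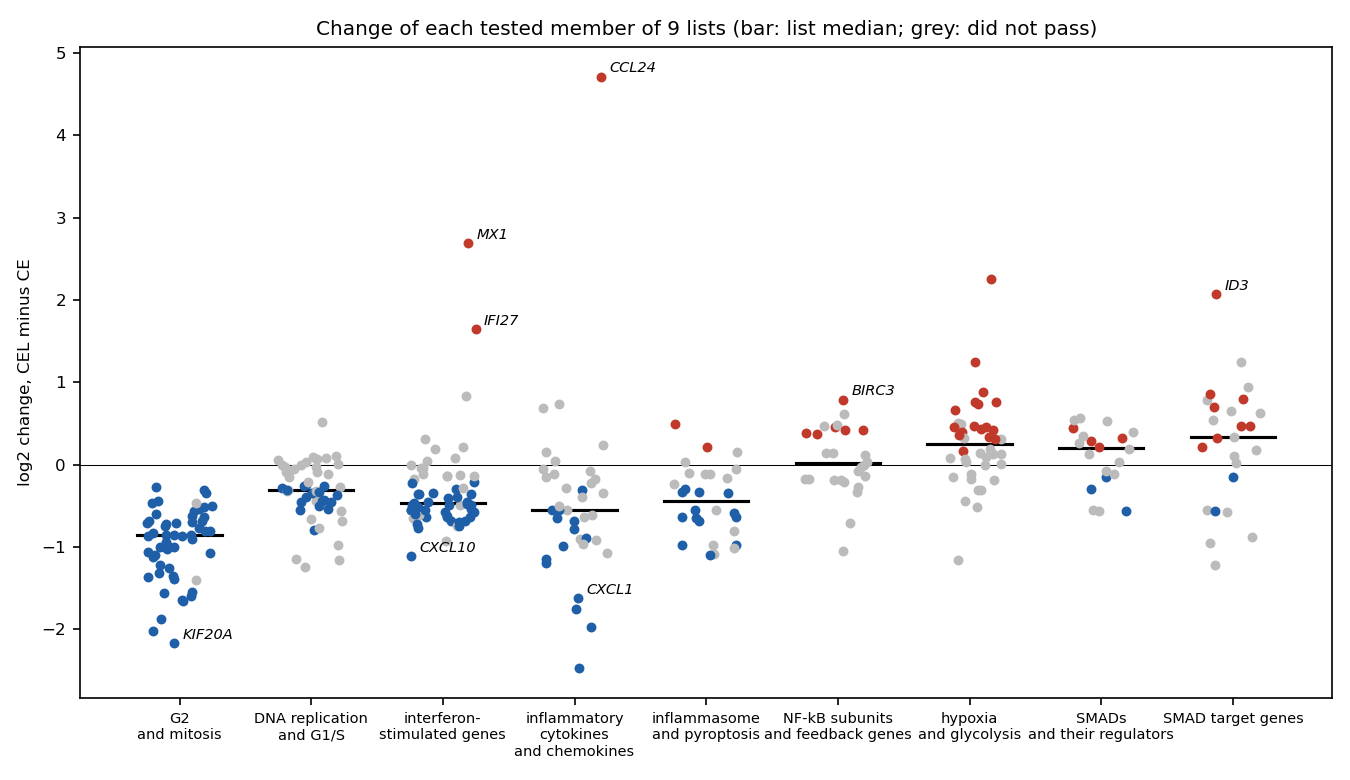
Log2 change, CEL minus CE, of every tested member of 9 gene lists, with red and blue points past an adjusted p of 0.05, grey points that did not pass, and a bar at each list's median. The G2 and mitosis members lie below 0 throughout (median -0.86), MX1 and IFI27 lie far above the other interferon-stimulated genes (median -0.46), and the SMAD target genes centre above 0 (median 0.33).

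The pathway that Luspatercept acts on was followed from ligands to targets. Ligand genes had few counts in these libraries, with 10 of 33 tested. Of these only BMP4, a bone morphogenetic protein, changed (1.67, 2.02 and 1.64 CPM in CE and 0.995, 0.752 and 1.24 CPM in CEL, log2 change -0.84, SE 0.22, adjusted p = 0.0185). Removing 1 library ended the call for BMP4 (CEL 1 or CEL 2; range 0.012 to 0.402). INHBA, the activin A subunit, lay at 1.43, 1.20 and 1.40 CPM in CE and 0.692, 1.10 and 0.484 CPM in CEL (adjusted p = 0.173). GDF11 (1.77, 2.65 and 1.40 CPM in CE and 1.90, 1.70 and 1.61 CPM in CEL, adjusted p = 0.699) and TGFB1 (0.689, 3.61 and 1.01 CPM in CE and 1.99, 0.952 and 1.07 CPM in CEL, adjusted p = 0.653) did not pass, and the direction of both turned without CE 2. INHBB, GDF15 and MSTN were too low to be tested. Of 7 tested extracellular traps and activators THBS1, a matrix protein that activates latent TGF-beta, rose by 0.47 on the log2 scale. ITGB8, an integrin that releases TGF-beta, fell from 2.54 ± 0.0527 to 1.17 ± 0.186 CPM, and the binding proteoglycan DCN fell from 2.07 ± 0.574 to 1.11 ± 0.214 CPM. Leaving out 1 library ended the call of DCN (CE 1, CE 3, CEL 1 or CEL 3; range 4.69e-04 to 0.693).

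Receptors changed little, with 2 of 14 called, 14.3% beside 23.6% of all tested genes. ACVR2B, the receptor from which the trap is made, lay at 4.28, 7.41 and 4.72 CPM in CE and 7.79, 5.31 and 6.50 CPM in CEL (adjusted p = 0.475). ACVR2A, its close relative, lay at 34.3, 34.4 and 38.6 CPM in CE and 43.3, 41.2 and 42.1 CPM in CEL, with no overlap and no call (adjusted p = 0.0921). It passed without CE 3 and with library size alone (0.0399 to 0.736 over the alternatives). BMPR2 (22.3, 47.4 and 32.96 CPM in CE and 39.9, 31.4 and 33.6 CPM in CEL) and the type I receptor ACVR1B (8.47, 18.4 and 12.2 CPM in CE and 14.8, 12.2 and 11.1 CPM in CEL) overlapped between the groups (adjusted p = 0.938 and 0.94). CE 2 was the highest CE library in all of these but ACVR2A. The type I receptor ACVR1C rose, at 4.53, 4.81 and 5.54 CPM in CE and 7.57, 7.77 and 9.03 CPM in CEL (log2 change 0.71, SE 0.16, adjusted p = 0.00744). TGFBR1, the type I receptor of TGF-beta, fell slightly, from 356 ± 10.5 to 312 ± 13.1 CPM (log2 change -0.19, SE 0.04, adjusted p = 0.00889). The call did not hold without 1 library for TGFBR1 (CE 3; range 0.00139 to 0.935). BAMBI, a decoy receptor, lay at 0.935, 1.83 and 1.25 CPM in CE and 0.519, 0.752 and 0.806 CPM in CEL, outside the threshold (adjusted p = 0.0738) but inside it with the batch block in 12 libraries (adjusted p = 0.0482) and without CE 1 (0.0414 to 0.427 over the alternatives).

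Among SMADs and their regulators 4 of 20 rose and 3 fell (9 and 3 without CE 2, 2 and 2 with the batch block in 12 libraries), 35% called beside 23.6% of all tested genes. With the batch block in the 6 libraries alone 0 passed, and with limma on log2(TPM + 1) 0. SMAD5, of the bone morphogenetic branch, lay at 67.9, 60.3 and 63.1 CPM in CE and 83.3, 87.7 and 90.3 CPM in CEL (log2 change 0.45, SE 0.07, adjusted p = 7.80e-04), with all CEL libraries higher. The shared SMAD4 lay at 70.2, 91.7 and 79.6 CPM in CE and 102, 94.8 and 97.4 CPM in CEL (log2 change 0.28, SE 0.08, adjusted p = 0.0275), and SMAD2, of the activin branch, at 168, 159 and 167 CPM in CE and 142, 149 and 154 CPM in CEL (log2 change -0.15, SE 0.05, adjusted p = 0.0427). A single library left out took away the call of SMAD4 (CE 1, CEL 1, CEL 2 or CEL 3, and the batch block in 12 libraries, adjusted p = 0.0557; range 1.12e-04 to 0.344) and SMAD2 (CE 1, CE 3, CEL 1 or CEL 2, and the batch block in 12 libraries, adjusted p = 0.0875; range 0.0105 to 0.965). SMAD3, at 23.5, 82.1 and 29.7 CPM in CE and 38.95, 29.01 and 23.4 CPM in CEL, rested on CE 2, with a log2 change of -0.56 with it and 0.20 without it (adjusted p = 0.337 and 0.506). The inhibitory SMAD6 (5.17, 7.75 and 4.58 CPM in CE and 4.50, 4.11 and 3.28 CPM in CEL, adjusted p = 0.127) and SMAD7 (1.72, 1.93 and 1.64 CPM in CE and 2.99, 2.05 and 2.63 CPM in CEL, adjusted p = 0.135) did not pass, although their groups did not overlap. SKIL, a repressor of SMAD transcription, lay at 299, 302 and 323 CPM in CE and 376, 371 and 413 CPM in CEL (log2 change 0.33, SE 0.06, adjusted p = 0.00166). TGIF1, another corepressor, fell from 26.7 ± 1.20 to 18.1 ± 0.418 CPM (log2 change -0.56, SE 0.07, adjusted p = 1.90e-04), and LDLRAD4, an inhibitor of SMAD activation, fell by 0.30 on the log2 scale. ZFYVE9, which presents SMADs to receptors and was named after its value was seen, rose by 0.21. With 1 library left out, the call was lost for LDLRAD4 (CE 3 or CEL 2; range 0.00334 to 0.665) and ZFYVE9 (CE 1, CEL 1 or CEL 3, and the batch block in 12 libraries, adjusted p = 0.0614; range 0.0157 to 0.673).

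Of SMAD target genes 8 of 25 tested members were higher beside 8.78% of all tested genes, 2 lower and a median of 0.33 (9, 2 and 0.60 without CE 2). Of them 2 rose and 0 fell with the batch block in the 6 libraries alone, and 4 and 0 with limma on log2(TPM + 1). The called SKIL and TGIF1 are also counted among SMAD regulators, THBS1 among traps and activators, and BHLHE40 among hypoxia and glycolysis genes. ID3, an inhibitor of helix-loop-helix factors and a bone morphogenetic protein target (chr1:23557926-23559501), lay at 0.837, 1.83 and 0.626 CPM in CE and 4.63, 5.01 and 4.24 CPM in CEL (log2 change 2.07, SE 0.38, adjusted p = 0.00222). It was close to 0 in NC (0.260 ± 0.142 CPM) and LPS (0.233 ± 0.0351 CPM), and CE 2 was the highest CE library, without which the change was 2.65. ID2 lay at 128, 109.5 and 124 CPM in CE and 184, 202 and 203 CPM in CEL (log2 change 0.70, SE 0.08, adjusted p = 1.16e-04). ID1, the remaining member of the trio tested here, lay at 0.591, 1.83 and 0.771 CPM in CE and 2.47, 2.25 and 1.40 CPM in CEL and passed only without CE 2 among the single libraries left out (adjusted p = 0.097 with it, 0.00262 without it, 0.00262 to 0.241 over the alternatives). KLF10, an early TGF-beta response factor, lay at 174, 150.5 and 164 CPM in CE and 282, 284 and 316 CPM in CEL (log2 change 0.85, SE 0.07, adjusted p = 1.43e-05). TSC22D3, a leucine zipper protein also induced by glucocorticoids, rose from 67.3 ± 6.91 to 117 ± 6.72 CPM, and the repressor BHLHE40 rose from 160.2 ± 2.59 to 221 ± 3.65 CPM. Named after their values were seen, the protease inhibitor TIMP1 rose by 0.21 and the matrix protein TGFBI fell by 0.15 on the log2 scale. Calls that ended without 1 library were those of TIMP1 (CE 2, CE 3, CEL 2 or CEL 3, and the batch block in 12 libraries, adjusted p = 0.0808; range 0.00246 to 0.672) and TGFBI (CE 3 or CEL 2; range 0.0075 to 0.899).

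Monocyte and macrophage surface and secreted markers fell in 20 of 43 cases and rose in 2 (23 and 4 without CE 2), 51.2% called beside 23.6% of all tested genes, with a median of -0.53 (-0.49 without CE 2). The count depended on the setting: 1 fell and 1 rose with the batch block in the 6 libraries alone, and 6 and 1 with limma on log2(TPM + 1). CLEC5A, an activating lectin receptor, lay at 22.98, 18.7 and 21.01 CPM in CE and 7.14, 7.72 and 6.93 CPM in CEL (log2 change -1.52, SE 0.09, adjusted p = 1.37e-06). S100A9, a calprotectin subunit, lay at 221, 187 and 192 CPM in CE and 109, 119 and 118 CPM in CEL (log2 change -0.79, SE 0.06, adjusted p = 1.22e-05). CCR2, the receptor of CCL2, fell from 11.4 ± 0.727 to 5.78 ± 0.816 CPM, and MS4A6A, a membrane protein of macrophages, fell from 16.7 ± 1.23 to 8.31 ± 0.637 CPM. In all 4 the groups were apart. Besides CD93, the activating IgG receptor FCGR2A rose by 0.29 and was named after its value was seen. The markers LYZ and FCGR1A, used to check the line, fell without overlap, and both kept their call without CE 2. Mean LYZ went from 27.7 to 20.3 CPM (log2 change -0.45, SE 0.06, adjusted p = 4.15e-04). Mean FCGR1A went from 36.7 to 22.6 CPM (log2 change -0.70, SE 0.09, adjusted p = 3.35e-04). Their calls in the other alternatives are not given. Serpins and genes of plasminogen activation moved in both directions, 3 higher and 7 lower of 19 (3 lower with the batch block in 12 libraries), 52.6% called. In that list 0 fell and 2 rose with the batch block in the 6 libraries alone, and 1 and 2 with limma on log2(TPM + 1). Beside SERPINE2, S100A10, a plasminogen receptor subunit, rose from 221 ± 22.2 to 364 ± 23.5 CPM, and the granzyme B inhibitor SERPINB9, named after its values were seen, rose from 0.503 ± 0.204 to 1.54 ± 0.245 CPM. SERPINA1, the elastase inhibitor, fell from 15.01 ± 0.731 to 7.34 ± 0.962 CPM (log2 change -1.03, SE 0.11, adjusted p = 5.54e-05), and F3, tissue factor, fell from 18.8 ± 1.70 to 11.8 ± 0.246 CPM.

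In each list that follows, other than hypoxia and glycolysis, at most 2 members rose and at most 2 fell with the batch block in the 6 libraries alone or with limma on log2(TPM + 1). Every share called is to be set beside 23.6% of all tested genes (8.78% higher and 14.8% lower). Of 12 MHC class II genes 4 fell and 1 rose (41.7% called beside 23.6% of all tested genes). CD74, the invariant chain, lay at 253, 243 and 239 CPM in CE and 178, 177 and 176 CPM in CEL (log2 change -0.47, SE 0.05, adjusted p = 3.51e-05). HLA-DRA fell from 48.4 ± 6.99 to 34.3 ± 0.573 CPM, HLA-DPA1 fell from 6.41 ± 1.19 to 3.07 ± 0.348 CPM, and HLA-DRB5, named after its value was seen, fell by 0.42 on the log2 scale, where reads can match close relatives. CTSS, the protease that processes the invariant chain, rose from 360.0 ± 11.5 to 439.9 ± 12.9 CPM. MHC class I genes had 3 higher and 4 lower of 18 (38.9% called). HLA-F, a class I relative with few reads, rose from 0.404 ± 0.0333 to 2.36 ± 0.318 CPM. The trimming enzyme ERAP2 rose by 0.52 and the chaperone PDIA3 by 0.21 on the log2 scale, both chosen after their values were seen. ERAP1, a relative of ERAP2, fell by 0.34 and the immunoproteasome subunits PSMB8, PSMB9 and PSMB10 fell by 0.30, 0.28 and 0.28, PSMB10 being added after its value was seen. Removing 1 library ended the call for HLA-DRB5 (CE 3, CEL 1 or CEL 3; range 0.00499 to 0.43), ERAP2 (CE 1, CEL 1, CEL 2 or CEL 3; range 0.00626 to 0.177), ERAP1 (CE 3; range 8.92e-05 to 0.627) and PSMB8 (CE 3; range 4.54e-04 to 0.604). Leaving out 1 library ended the call of PSMB9 (CE 3; range 9.62e-04 to 0.566) and PSMB10 (CE 3 or CEL 3; range 0.0139 to 0.719).

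Immature myeloid genes fell in 5 of 13 cases and rose in 0 (38.5% called). MYB, a progenitor transcription factor, lay at 181, 166 and 182 CPM in CE and 99.5, 97.8 and 108 CPM in CEL (log2 change -0.79, SE 0.05, adjusted p = 2.59e-06), with the groups well apart. KIT, the stem cell factor receptor, fell from 33.9 ± 2.18 to 25.6 ± 2.78 CPM, and RNASE2, a granule ribonuclease, fell from 51.8 ± 6.27 to 40.002 ± 3.75 CPM. MS4A3, a regulator of the cell cycle in myeloid cells, fell from 0.809 ± 0.250 to 0.407 ± 0.0208 CPM, and the ribonuclease RNASE3, named after its values were seen, fell from 0.648 ± 0.121 to 0.327 ± 0.0429 CPM. The call did not hold without 1 library for KIT (CE 3; range 0.00203 to 0.461), RNASE2 (CE 1, CE 3 or CEL 1; range 0.00102 to 0.462), MS4A3 (CE 1, CE 3, CEL 1 or CEL 2; range 0.00522 to 0.419) and RNASE3 (CE 1, CE 3, CEL 1, CEL 2 or CEL 3; range 0.0381 to 0.317). Macrophage transcription factors rose in 4 and fell in 1 of 28, and the share called (17.9%) was below that of all tested genes (23.6%). RUNX2 lay at 12.3, 22.1 and 15.3 CPM in CE and 34.7, 32.7 and 35.3 CPM in CEL (log2 change 1.05, SE 0.18, adjusted p = 0.00152), with CE 2 highest in CE yet below CEL. The repressor ETV3 rose from 272 ± 5.66 to 412 ± 21.9 CPM, the interferon regulatory factor IRF8, named after its value was seen, rose by 0.28, and the lipid-sensing PPARG fell from 5.70 ± 0.482 to 3.77 ± 0.104 CPM. A single library left out took away the call of IRF8 (CE 1, CEL 1 or CEL 2; range 2.86e-06 to 0.49) and PPARG (CE 3; range 0.00586 to 0.24).

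Called genes of hypoxia and glycolysis all rose. Of 40 tested 17 were higher and 0 lower (23 and 1 without CE 2), 42.5% called beside 23.6% of all tested genes, with a median of 0.25 (0.38 without CE 2). With no low-count filter 11 were called higher, while 5 rose and 0 fell with the batch block in the 6 libraries alone, and 5 and 0 with limma on log2(TPM + 1). P4HA2, a collagen prolyl hydroxylase, lay at 24.1, 21.4 and 22.9 CPM in CE and 41.7, 42.3 and 41.8 CPM in CEL (log2 change 0.88, SE 0.07, adjusted p = 7.23e-06). BNIP3L and BNIP3, receptors for removal of mitochondria, lay at 226, 188 and 211 CPM in CE and 337, 352 and 369.8 CPM in CEL (log2 change 0.76, SE 0.08, adjusted p = 7.11e-05) and at 205, 177 and 193 CPM in CE and 284, 311 and 311 CPM in CEL (log2 change 0.66, SE 0.08, adjusted p = 1.18e-04). All CEL libraries were above all CE libraries for these genes. The remaining 23 tested members of the list did not pass, and the changes of some of them were below 0. Cholesterol synthesis and lipid transport had 10 higher and 3 lower of 30 (1 lower with the batch block in 12 libraries), 43.3% called. INSIG1, a sterol sensor, lay at 218, 238 and 224 CPM in CE and 316, 320.3 and 315 CPM in CEL (log2 change 0.48, SE 0.04, adjusted p = 1.16e-05), and the enzymes IDI1, MSMO1 and SQLE rose by 0.50, 0.44 and 0.33 on the log2 scale. Those that fell, named after their values were seen, were the exporter ABCA1 (-0.36) and the enzymes FDPS (-0.18) and ACLY (-0.13). The call did not hold without 1 library for ABCA1 (CE 3; range 0.00203 to 0.582), FDPS (CE 1, CE 3, CEL 1, CEL 2 or CEL 3, and the batch block in 12 libraries, adjusted p = 0.0698; range 0.00354 to 0.893) and ACLY (CE 2, CE 3, CEL 2 or CEL 3, and the batch block in 12 libraries, adjusted p = 0.0792; range 0.0183 to 0.929).

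Iron and heme genes had 4 higher and 7 lower of 34 (32.4% called beside 23.6% of all tested genes). HMOX1, the enzyme that breaks down heme, lay at 13.5, 19.4 and 14.2 CPM in CE and 47.1, 43.4 and 40.1 CPM in CEL (log2 change 1.47, SE 0.16, adjusted p = 8.39e-05), above its LPS level of 25.1 ± 2.11 CPM in every CEL library. FTH1, the ferritin heavy chain, whose reads can also match its pseudogenes, lay at 2998, 3159 and 2788 CPM in CE and 4532, 4508 and 4665 CPM in CEL (log2 change 0.62, SE 0.06, adjusted p = 5.30e-05). HMOX2, the constitutive heme oxygenase, and SLC25A38, a mitochondrial glycine carrier, rose by 0.42 and 0.32 and were named after their values were seen. ALAS1, the first enzyme of heme synthesis, fell from 334 ± 25.998 to 266 ± 11.8 CPM. With 1 library left out, the call was lost for ALAS1 (CE 3; range 8.43e-05 to 0.519). NRF2 targets had 7 higher and 4 lower of 31 (35.5% called). HMOX1 and FTH1 belong to that list too, while the aldo-keto reductases AKR1C2 and AKR1C3, close relatives that can share reads, fell from 159 ± 9.72 to 82.5 ± 4.69 CPM and from 12.1 ± 0.778 to 6.48 ± 0.673 CPM. Their relatives AKR1C1 (-0.47) and AKR1B1 (-0.23), named after their values were seen, were the other members lower. A single library left out took away the call of AKR1C1 (CE 3; range 0.00288 to 0.583) and AKR1B1 (CE 1, CE 3, CEL 1, CEL 2 or CEL 3, and the batch block in 12 libraries, adjusted p = 0.0561; range 0.00369 to 0.765).

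Lysosome and autophagy genes had 10 higher and 5 lower of 38 (39.5% called beside 23.6% of all tested genes). The autophagosome protein MAP1LC3B rose by 0.53, the protease CTSL by 0.49 and the cholesterol exporter NPC1 by 0.43 on the log2 scale. Those lower, named after their values were seen, were the proteases CTSA (-0.32) and CTSC (-0.25), the hydrolases GUSB (-0.41) and HEXA (-0.20) and the autophagy protein WIPI1 (-0.54). With 1 library left out, the call was lost for CTSC (CE 1, CE 3 or CEL 1; range 1.07e-04 to 0.731), HEXA (CE 1, CE 3, CEL 1, CEL 2 or CEL 3, and the batch block in 12 libraries, adjusted p = 0.0549; range 0.0117 to 0.871) and WIPI1 (CE 1, CE 3, CEL 1 or CEL 2; range 0.00295 to 0.391). Integrated stress and unfolded protein response genes had 5 higher and 6 lower of 34 (32.4% called). ATF3, a stress-induced factor, rose from 33.4 ± 0.850 to 49.5 ± 1.56 CPM, and ATF4 (0.17), ATF6 (0.31), VLDLR (0.41) and DNAJC3 (0.28), named after their values were seen, were the other members higher. The amino acid enzymes ASNS and PSAT1 and the factor XBP1 fell by 0.52, 0.44 and 0.32. Calls that ended without 1 library were those of PSAT1 (CE 3; range 6.85e-05 to 0.32) and XBP1 (CE 3; range 8.68e-05 to 0.602).

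Apoptosis and p53 targets had 8 higher and 3 lower of 33 (33.3% called). GADD45B, a stress and TGF-beta response gene, lay at 11.7, 11.6 and 10.9 CPM in CE and 38.0003, 41.99 and 44.5 CPM in CEL (log2 change 1.86, SE 0.09, adjusted p = 3.20e-07). ZMAT3 rose by 0.64, the death gene BCL2L11 rose by 0.40, and MDM2, the inhibitor of p53, fell by 0.42, as did, named after their values were seen, the pro-apoptotic BAX (-0.29) and the survival gene BCL2A1 (-0.42). Removing 1 library ended the call for BAX (CE 3 or CEL 2; range 0.0112 to 0.738) and BCL2A1 (CE 3 or CEL 1; range 0.00138 to 0.424). Immediate early genes had 4 higher and 2 lower of 23, 26.1% called, near the 23.6% of all tested genes. NR4A2, an orphan nuclear receptor, lay at 3.59, 5.68 and 3.61 CPM in CE and 13.1, 12.9 and 11.6 CPM in CEL (log2 change 1.54, SE 0.27, adjusted p = 0.00171), KLF6 rose by 0.35, FOSL1, named after its value was seen, rose by 0.76, and the phosphatase DUSP6 fell from 103 ± 29.7 to 68.03 ± 5.93 CPM. Calls that ended without 1 library were those of FOSL1 (CE 1, CE 3, CEL 1, CEL 2 or CEL 3; range 0.0123 to 0.396) and DUSP6 (CEL 2 or CEL 3; range 2.94e-06 to 0.44).

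In the next 4 lists the share called in the fit on all 12 libraries was below the 23.6% of all tested genes. The list of calcineurin, NFAT and cyclophilin genes, drawn around the pathway that CsA inhibits, had 3 of 20 called (15%). Both groups received CsA. The called genes were NFAT5 at 0.28, TNFRSF9 at -0.43 and FKBP1A at -0.23, and no tested calcineurin subunit or cyclophilin gene passed. Removing 1 library ended the call for NFAT5 (CEL 3; range 0.00135 to 0.647), TNFRSF9 (CE 1, CE 3, CEL 2 or CEL 3; range 0.00272 to 0.74) and FKBP1A (CE 1, CE 3, CEL 1 or CEL 2, and the batch block in 12 libraries, adjusted p = 0.0609; range 0.00183 to 0.745). Ribosome biogenesis and MYC targets had 3 higher and 4 lower of 36 (1 lower with the batch block in 12 libraries), 19.4% called. They were POLR1C (0.59), RRN3 (0.33) and NOLC1 (0.23), which serve rRNA synthesis, against MYC, PUS7 (-0.62) and, named after their values were seen, NOP56 (-0.16) and DKC1 (-0.17), which modify RNA. Leaving out 1 library ended the call of NOP56 (CE 1, CE 3, CEL 1 or CEL 2, and the batch block in 12 libraries, adjusted p = 0.0601; range 0.00668 to 0.923) and DKC1 (CE 1, CE 3, CEL 1, CEL 2 or CEL 3, and the batch block in 12 libraries, adjusted p = 0.0889; range 0.00345 to 0.919). Ribosomal protein genes, which share reads with pseudogenes, had 8 of 60 lower and 0 higher (13.3% called, median -0.15). Without CE 2 this turned: 40 of 60 were lower, beside 17.5% of all tested genes, and the median was -0.21. RPL3 changed by -0.34 and RPS2 by -0.28. Leaving out 1 library ended the call of RPL3 (CE 3; range 2.62e-04 to 0.548). Nuclear-encoded subunits of the respiratory chain had 1 of 44 called (2.27%), NDUFV1 (-0.53). The call did not hold without 1 library for NDUFV1 (CE 2, CEL 2 or CEL 3, and the batch block in 12 libraries, adjusted p = 0.0754; range 1.86e-04 to 0.529).

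Of 13 mitochondrially encoded transcripts 6 fell and 1 rose (4 and 0 with the batch block in 12 libraries), 53.8% called, with MT-CO2 at -0.50 and, named after its value was seen, MT-ND1 at 0.23. A single library left out took away the call of MT-CO2 (CE 3; range 1.14e-04 to 0.45) and MT-ND1 (CE 1, CE 2, CEL 2 or CEL 3, and the batch block in 12 libraries, adjusted p = 0.073; range 0.0138 to 0.673). Metallothioneins and zinc transporters had 6 lower and 1 higher of 10 (4 and 1 with that block), 70% called beside 23.6% of all tested genes. MT2A and MT1F fell by 0.47 and 0.55, the zinc-sensing factor MTF1 by 0.25 and the importer SLC39A8 by 0.23, and SLC39A14, named after its value was seen, rose by 0.21. With 1 library left out, the call was lost for SLC39A8 (CE 3; range 0.00114 to 0.76).

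**Figure D4:**
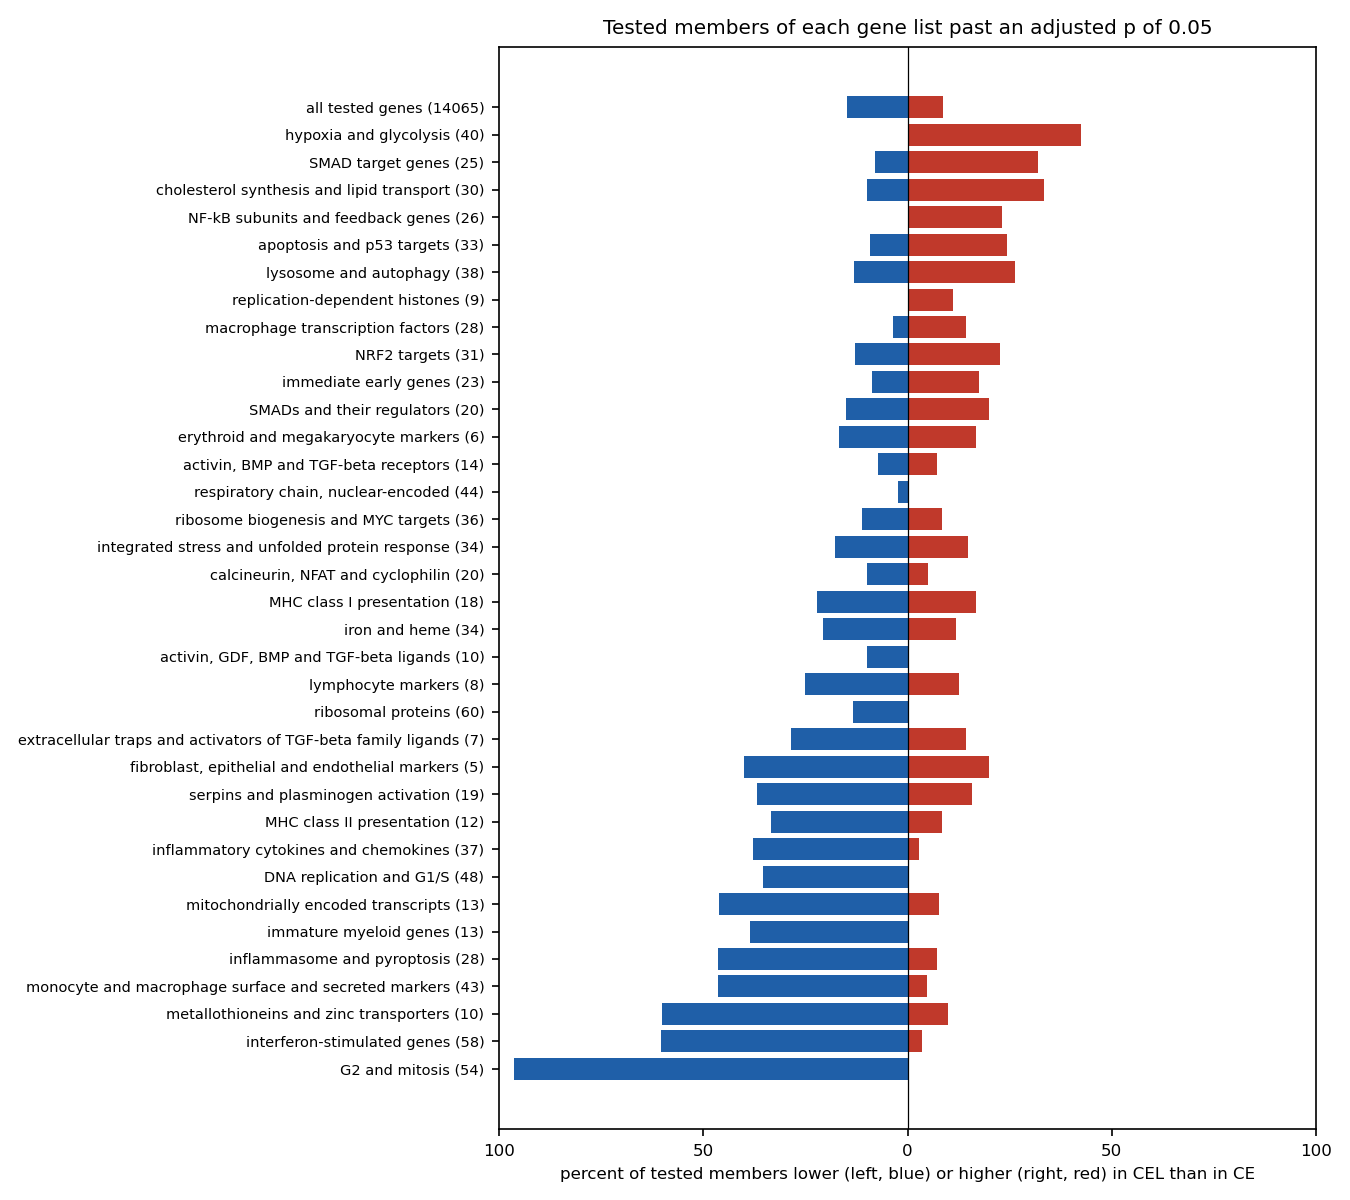
Percent of the tested members (number in brackets) of each of 35 gene lists that were lower (left, blue) or higher (right, red) in CEL than in CE at an adjusted p under 0.05, with all 14065 tested genes on top. The G2 and mitosis list has the largest share lower (52 of 54), and hypoxia and glycolysis the largest share higher (17 of 40).

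The 12 largest rises and 12 largest falls, taken among called genes whose log2 CPM averaged 3 or more and that had no overlap and a call without CE 2, held further genes outside these lists. RAB13, a small GTPase of membrane traffic, lay at 19.8, 16.1 and 18.9 CPM in CE and 67.3, 69.2 and 75.4 CPM in CEL (log2 change 1.95, SE 0.08, adjusted p = 1.48e-07). TNFRSF10D, a decoy receptor of the death ligand TRAIL, lay at 11.5, 14.5 and 13.01 CPM in CE and 37.7, 35.5 and 39.6 CPM in CEL (log2 change 1.53, SE 0.09, adjusted p = 9.98e-07). GEM, a GTPase that limits calcium channels, lay at 10.98, 10.8 and 9.73 CPM in CE and 30.4, 28.7 and 29.3 CPM in CEL (log2 change 1.49, SE 0.14, adjusted p = 2.95e-05), and SLC2A5, a fructose transporter, at 18.6, 19.3 and 15.997 CPM in CE and 43.5, 45.7 and 41.2 CPM in CEL (log2 change 1.27, SE 0.08, adjusted p = 1.76e-06). In all 4 every CEL library was at least 2-fold above every CE library. RGPD2 (1.74) has close copies that can share its reads, and ENSG00000266976 (2.10) carried no symbol in the deposited table. Of the falls, FGD4, an activator of the GTPase CDC42, lay at 58.6, 55.9 and 62.6 CPM in CE and 16.3, 15.4 and 17.5 CPM in CEL (log2 change -1.85, SE 0.10, adjusted p = 9.39e-07). RXFP1, the relaxin receptor, lay at 19.2, 17.6 and 19.7 CPM in CE and 4.72, 6.56 and 6.02 CPM in CEL (log2 change -1.71, SE 0.12, adjusted p = 2.92e-06), and RASGRF1, an exchange factor for RAS, at 21.3, 21.6 and 18.5 CPM in CE and 5.97, 6.81 and 6.45 CPM in CEL (log2 change -1.67, SE 0.14, adjusted p = 1.13e-05). VCAM1, an adhesion molecule, lay at 19.98, 16.1 and 19.8 CPM in CE and 5.63, 5.61 and 6.34 CPM in CEL (log2 change -1.67, SE 0.11, adjusted p = 2.37e-06), and IGSF6, an immunoglobulin-like receptor of myeloid cells, at 21.3, 17.6 and 21.01 CPM in CE and 6.28, 7.47 and 6.61 CPM in CEL (log2 change -1.56, SE 0.14, adjusted p = 2.15e-05). Each of these was lower in every CEL library than in any CE library. FAM72D (-1.63) belongs to a family of near-identical copies, so its value is uncertain.

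Library CE 2 decided some calls. Of the 296 calls lost without it, 185 averaged a log2 CPM of 3 or more. The 6 with the largest change were all falls. ITGAM, the integrin alpha M chain of monocytes, lay at 12.5, 59.97 and 17.3 CPM in CE and 13.2, 8.97 and 7.25 CPM in CEL, and its change went from -1.60 to -0.60 without CE 2 (adjusted p = 0.0453 and 0.155). ITGAL, the integrin alpha L chain, lay at 13.98, 48.7 and 19.5 CPM in CE and 16.1, 10.7 and 7.36 CPM in CEL (change -1.26, and -0.55 without CE 2). VAV1, a signalling exchange factor, lay at 67.9, 132 and 74.4 CPM in CE and 66.5, 53.7 and 46.05 CPM in CEL (change -0.72, and -0.36 without CE 2). CYB561A3, a lysosomal iron reductase, went from -1.01 to -0.50, the folding enzyme FKBP9 from -0.67 to -0.38, and MYC was given above. In all 6 the CE 2 value was well above CE 1 and CE 3. Calls that ended without 1 library were those of ITGAM (CE 2, CEL 1, CEL 2 or CEL 3, and the batch block in 12 libraries, adjusted p = 0.103; range 3.63e-17 to 0.283), ITGAL (CE 2, CE 3, CEL 2 or CEL 3, and the batch block in 12 libraries, adjusted p = 0.103; range 2.35e-14 to 0.647), VAV1 (CE 2, CEL 2 or CEL 3, and the batch block in 12 libraries, adjusted p = 0.08; range 2.75e-08 to 0.372), CYB561A3 (CE 2, CEL 2 or CEL 3, and the batch block in 12 libraries, adjusted p = 0.07; range 2.89e-13 to 0.228) and FKBP9 (CE 2, CEL 2 or CEL 3, and the batch block in 12 libraries, adjusted p = 0.0539; range 0.00108 to 0.716).

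**Figure D5:**
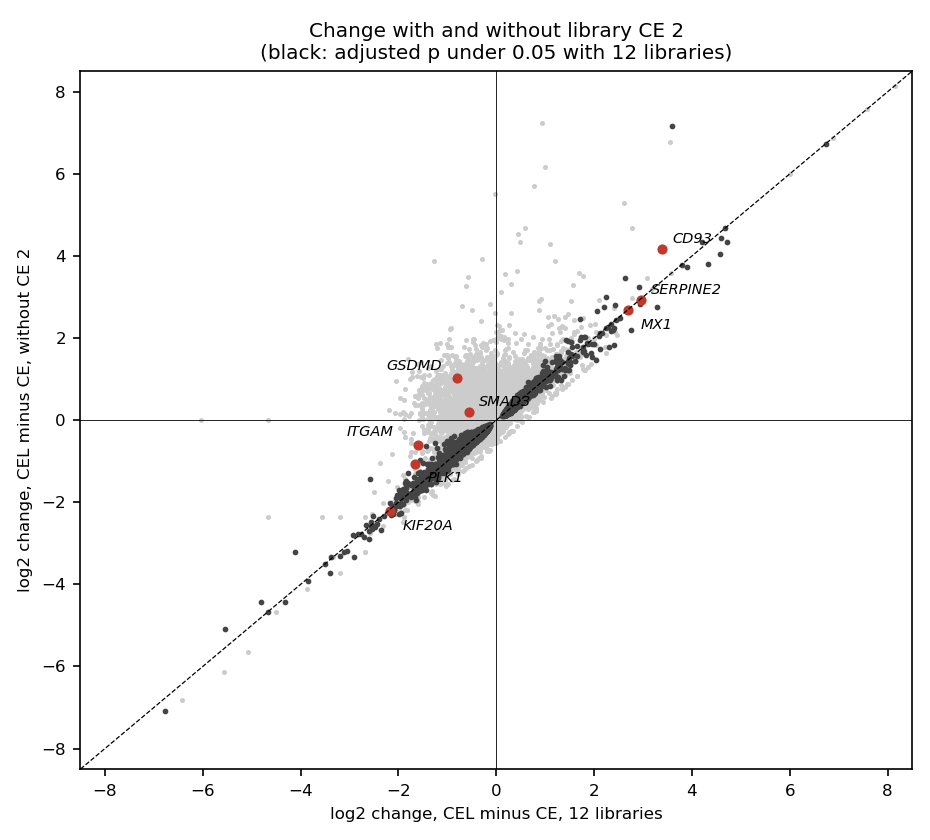
Log2 change, CEL minus CE, with all 12 libraries (horizontal axis) and without CE 2 (vertical axis) for each tested gene, with called genes in black, named genes in red and a dashed line where both are equal. KIF20A, MX1 and SERPINE2 lie near the line, CD93 lies above it (3.38 and 4.17), and ITGAM, SMAD3 and GSDMD lie away from it.

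Markers of other cell types were low. Of 26 lymphocyte markers 21 lay under 1 CPM, and CD3E, CD8A, TRBC1 and TRBC2 had 0 counts in the 6 libraries. Of the 8 that could be tested 2 fell and 1 rose (37.5% called). The summed level was 434 to 512 CPM in CE and 363 to 403 CPM in CEL, nearly all of it in IL7R, CD4 and NCAM1, and without these 3 it was 4.87 to 6.63 CPM in CE and 3.62 to 5.43 CPM in CEL. NCAM1, a neural adhesion molecule also seen on leukaemic cells, fell and lay at 18.2, 19.1 and 18.8 CPM in CE and 6.54, 6.21 and 6.82 CPM in CEL (log2 change -1.52, SE 0.09, adjusted p = 1.37e-06). TRAC, a T cell receptor chain, fell from 1.71 ± 0.0687 to 0.836 ± 0.232 CPM, and CD79B, of the B cell receptor, rose from 0.162 ± 0.0303 to 0.469 ± 0.167 CPM. Removing 1 library ended the call for CD79B (CE 1, CE 2, CE 3, CEL 1 or CEL 2, and the batch block in 12 libraries, adjusted p = 0.0654; range 0.0425 to 0.25). Of 33 erythroid and megakaryocyte markers 29 lay under 1 CPM, with sums of 62.2 to 88.5 CPM in CE and 50.2 to 54.4 CPM in CEL, mostly in GYPC. GYPC, a membrane protein found beyond red cells, fell from 61.9 ± 8.06 to 38.8 ± 0.960 CPM (log2 change -0.67, SE 0.08, adjusted p = 1.65e-04). Of 23 fibroblast, epithelial and endothelial markers 19 lay under 1 CPM, and PECAM1, which monocytes express, made up most of the sums of 491 to 556 CPM in CE and 471 to 486 CPM in CEL. The proteoglycan LUM fell from 2.14 ± 0.437 to 1.02 ± 0.0457 CPM, beside DCN given above, and the growth factor receptor PDGFRA rose from 1.03 ± 0.106 to 1.70 ± 0.242 CPM. Leaving out 1 library ended the call of PDGFRA (CE 1, CEL 2 or CEL 3; range 0.0144 to 0.446). Their part in the other results was not tested.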

How the data were processed

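RNA of THP-1 cells was sequenced after capture on oligo-dT beads, per the labels' protocols, in 12 libraries of 4 groups. The submitters' processing notes name the genome build hg38. The aligner, counter, annotation and use of strand are not given in these sources, so genes that overlap or have close copies can share reads. The authors deposited estimated counts per gene (78932 genes, 29.3% of nonzero counts more than 0.005 from a whole number), which were rounded for the tests. They also deposited TPM values, used in one alternative, and an FPKM table, not used here. No column was left over after matching (0 not used). The CE columns carry a shorter name than their labels and were matched as the remaining group.

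Genes were kept by edgeR's filterByExpr over the 4 groups (14065 genes, 12718 with a symbol). They were scaled with TMM factors and tested two-sided with edgeR 4.0.16 (R 4.3.3) by the quasi-likelihood F-test on all 12 libraries with group as the term and Benjamini-Hochberg adjustment over all tested genes. The fit left 8 residual degrees of freedom, with 2.93 prior degrees of freedom, and the biological coefficient of variation was 20.13%. SE is the log2 change divided by the square root of F, an approximation. CPM levels are TMM-scaled, with mean ± SD of 3 libraries. The procedure was tested on simulated data. The total counts limit precision for genes near 1 CPM.

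In the labels the batch number is the same as the replicate number, and it was taken to pair the samples. The reported test does not use that pairing. Same-numbered CE and CEL libraries deviated from their group means with correlations of -0.857, -0.338 and 0.728 over 7460 genes, and 6 of 18 same-numbered pairs over the 4 groups had a correlation over 0.1. The block is an alternative. Its adjusted p in 12 libraries stands beside a named gene where it changed the call. The 130 named genes that lost their call with the block in the 6 libraries alone are not marked one by one.

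The members and lists were chosen with earlier results of these data known. Lists can share members, so their counts are not separate results. The rule for named genes took the 4 marker genes, 10 genes of inflammasome and cytokine output, the genes of the Luspatercept pathway, the 12 largest rises and 12 largest falls whose log2 CPM averaged 3 or more, from each list at most 4 members with the lowest p, and the 6 largest changes that were not called without CE 2. Others are said to be chosen after their values were seen. Some genes of the rule are not reported here.

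Alternatives were other scaling factors, no filter or at least 1 CPM in 3 of the 6 libraries, DESeq2 1.42.0, the 6 CE and CEL libraries alone, the block, each CE and CEL library left out in turn, limma 3.58.1 on log2(TPM + 1) and log2(TPM + 0.1), an adjusted p under 0.01, and limma-voom, which was added after seeing the data. Promoter windows come from RefSeq (GRCh38.p14).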

Additional observations from a re-analysis of the deposited data

How the results depend on the processing

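The count of genes higher (1235) was 463 with no low-count filter, 84 with the replicate block in the 6 CE and CEL libraries alone, 109 and 83 with limma on log2(TPM + 1) and log2(TPM + 0.1), and 701 at an adjusted p under 0.01. The count lower (2086) was 886 with the 6 libraries alone, 124 with the replicate block there, 157 and 142 with limma, and 1298 at 0.01. Genes higher by at least 2-fold (125) were 71 with a minimum of 1 CPM, 35 with that block, 45 and 54 with limma and 66 at 0.01. Genes lower by at least 2-fold (348) were 623 with no filter, 223 with the 1 CPM minimum, 189 with the 6 libraries alone, 49 with that block, and 57 and 93 with limma. With that block and limma in the same order, members lower were 30, 26 and 26 for G2 and mitosis, 5, 2 and 2 for interferon-stimulated genes, 3, 7 and 6 for cytokines and chemokines, and 1, 6 and 4 for monocyte and macrophage markers. Members higher of hypoxia and glycolysis were 11 with no filter and 5, 5 and 3 in those settings. The cause was not tested.

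Leaving out each CE or CEL library gave 864 to 1680 genes higher, 1198 to 2466 lower, 99 to 315 higher and 259 to 421 lower by at least 2-fold, 47 to 51 G2 and mitosis members, 28 to 38 interferon-stimulated genes, 11 to 15 cytokines, 16 to 23 monocyte markers and 15 to 23 hypoxia genes. With the replicate block in all 12 libraries 1035 genes were higher and 1768 lower, within 1.5 times the reported counts. The fit without one library of a group assumes that the remaining 2 vary like the other groups. Of 197 tested genes named, LYZ and FCGR1A not counted, 177 were called. In none (0) of these did the direction turn in any of the 19 alternatives.

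Direction turned in genes that did not pass. ACVR1B was at 0.022 with relative log expression factors, 0.017 with upper quartile factors, 0.003 with library size alone, 0.022 with DESeq2, 0.031 with the 6 libraries alone, 0.001 and 0.072 with the replicate block in 12 and in 6 libraries, 0.300 without CE 2, 0.013 without CE 3, 0.053 without CEL 3, 0.197 and 0.246 with limma on TPM and 0.036 with limma-voom. BMPR2 was at -0.002 with no filter, -0.198 without CE 1 and -0.075 without CEL 1. Without CE 2, GSDMD was at 1.024, GDF11 at 0.137, TGFB1 at 0.664, SMAD3 at 0.197 and ESPL1 at 0.730, and with limma TGFB1 was at 0.048 and 0.191. Rises were 37.2% of calls as reported, 43.2% with relative log expression factors, 47.4% with library size alone, 18.2% with no filter, 48.2% with the 6 libraries alone and 49.4% without CE 3. With 1 CE or CEL library left out, the lowest and highest changes were -1.342 and 1.024 for GSDMD, -0.267 and 0.300 for ACVR1B, -0.198 and 0.337 for BMPR2, -0.261 and 0.137 for GDF11, -0.803 and 0.664 for TGFB1, -0.874 and 0.197 for SMAD3, and -1.953 and 0.730 for ESPL1. Genes near 1 CPM are limited by depth.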
